A study of Mus musculus with 10 samples.

Results

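The set examined here is 9 genes of peroxisomal fatty acid oxidation and of the oxidation of unsaturated fatty acids: Eci1, Eci2, Decr1, Decr2, Acox3, Ehhadh, Hsd17b4, Acaa1a and Acad11. They were taken by symbol from the 20156 gene rows of the deposited count table, and all 9 passed the filter on low counts with 16180 genes tested. RNA was measured in whole hippocampus of mice aged 6 months, in 5 animals labelled Tfam AKO (TfamAKO) and 5 labelled Wild Type (WT), with 1 library per animal. Tfam encodes the factor that packages and transcribes mitochondrial DNA. The labels do not name the allele, the Cre driver, the strain or the sex, and the series title places the study in astrocytic mitochondria.

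Beta-oxidation shortens fatty acids from the carboxyl end. Mitochondria carry it out for most dietary chain lengths, and peroxisomes take very long, branched and dicarboxylic chains. In peroxisomes an acyl-CoA oxidase makes the first double bond, a bifunctional enzyme hydrates and oxidises it, and a thiolase releases acetyl-CoA. Unsaturated chains also need auxiliary enzymes that move or remove the double bonds already present, the enoyl-CoA isomerases and the dienoyl-CoA reductases. Among brain cells, astrocytes are known as the main site of fatty acid oxidation.

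Total counts were 19558377 to 28675367 in TfamAKO and 16584245 to 26032470 in WT. Tfam was at 22.5 ± 1.63 CPM (counts scaled to TMM-adjusted library size) in TfamAKO and 29.7 ± 5.17 CPM in WT (SD, n = 5 each). It fell by 0.40 ± 0.12 (SE) on the log2 scale (edgeR quasi-likelihood test, adjusted p = 0.0204), and the call was lost in 8 of 24 alternative analyses, among them the fits without TfamAKO 3 (adjusted p = 0.0554), WT 2 (0.0580) or WT 4 (0.0504). WT 3 lay at 20.6 CPM, within the TfamAKO range of 19.6 to 23.6 CPM. All 8 choroid plexus markers were lower in TfamAKO, and they summed to 33.7 to 130 CPM in TfamAKO and to 42.3 to 5643 CPM in WT, where WT 3, 4 and 5 carried most of them (Ttr at 5146, 3801 and 2511 CPM). TfamAKO 4 (22.7 CPM) and TfamAKO 5 (22.4 CPM) expressed the Y-linked gene Kdm5d, which stayed below 1 CPM in the remaining 8 mice. By this gene, sex was not balanced between the genotypes, as no WT library expressed it. The part of sex in the results was not tested, and fits without TfamAKO 4 and 5 are given below. Markers of hippocampal principal cells (0 of 8 higher, 1 lower) were present in every library, at a sum of 455 to 778 CPM in TfamAKO and 770.1 to 849 CPM in WT. The marker that fell was Dsp, at 7.20 ± 3.68 CPM in TfamAKO and 41.9 ± 3.73 CPM in WT (edgeR adjusted p = 3.45e-05). Other cell type markers also moved, and their part in the results below was not tested. Microglial markers (7 of 8 higher) summed to 675 to 852 CPM in TfamAKO and 369 to 429 CPM in WT, and endothelial markers (4 of 5 higher) to 271 to 435 CPM in TfamAKO and 179 to 234 CPM in WT. Astrocyte markers (4 of 10 higher, 3 lower) summed to 4581 to 7176 CPM in TfamAKO and 4293 to 5297 CPM in WT. Neuronal markers (4 of 8 lower) summed to 7600 to 8905 CPM in TfamAKO and 9679 to 10590 CPM in WT, and oligodendrocyte markers (2 of 7 higher) to 5796 to 7883 CPM in TfamAKO and 5103 to 8878 CPM in WT. No marker of these lists was at 0 in all libraries. In whole tissue, fewer cells of a type and less RNA per cell cannot be told apart.

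Of the 9 genes, 6 rose in TfamAKO, 0 fell and 3 did not pass the test (edgeR, adjusted p threshold 0.05), while 20.8% of all genes tested rose and 16.6% fell. The median log2 fold change of the 9 was 0.34, against -0.02 over all genes tested. The genes that rose were Eci2, Decr1, Ehhadh, Acox3, Acad11 and Hsd17b4, and Eci1, Acaa1a and Decr2 did not pass. Every TfamAKO library lay above every WT library for 5 of the 9, a pattern seen in 14.5% of all genes. The same 6 genes passed in each of the 10 fits that left out 1 library. The summed level of the 9 was 378 to 424 CPM in TfamAKO and 271 to 305 CPM in WT. TfamAKO 1 was the lowest TfamAKO library for 5 of the 9 genes, and WT 1, the library with the smallest total count, was the lowest WT library for 7.

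**Figure D1:**
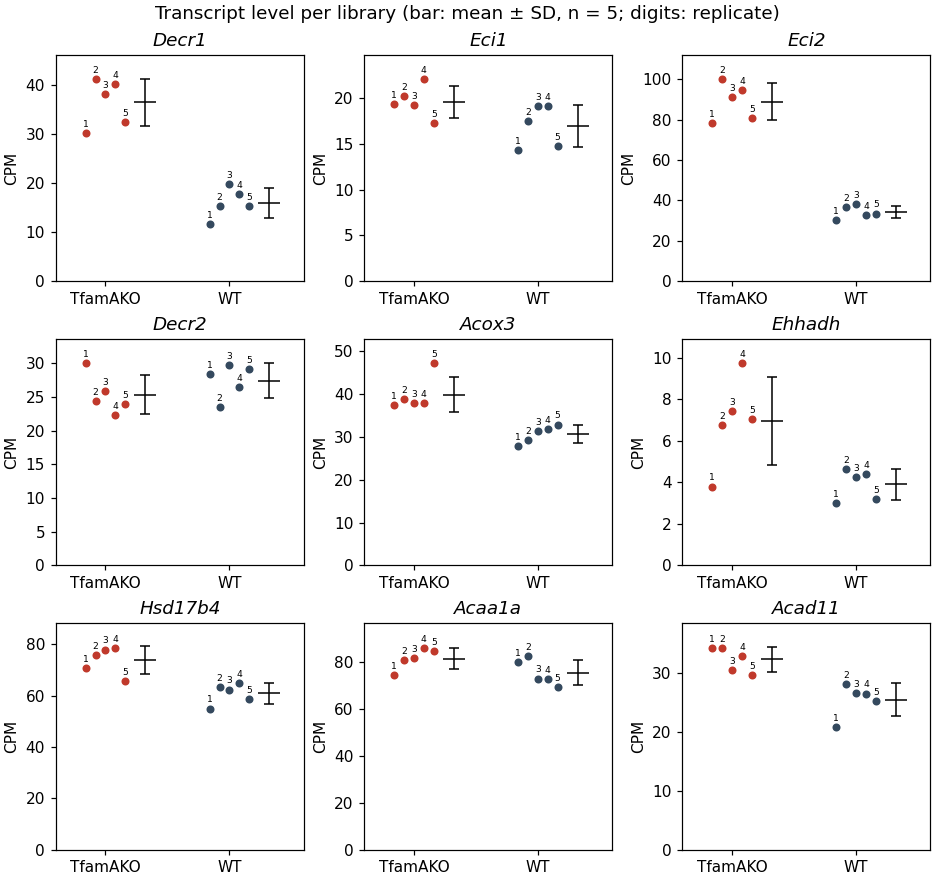
CPM of each of the 9 genes by library, with TfamAKO left of WT; points are libraries with their replicate number, and black bars are mean ± SD over 5 mice. The genotypes are separate for Decr1, Eci2, Acox3, Hsd17b4 and Acad11 and overlap for Eci1, Decr2, Ehhadh and Acaa1a.

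To show the sequence that precedes these genes, 250 bases upstream of a transcription start were read from RefSeq's promoter table on GRCm38.p6, which held 7 of the 9 genes (not Decr1 and Hsd17b4). The sources used here do not name the build behind the deposited counts. Printed are the isomerase pair, in which Eci2 rose and Eci1 did not pass, the oxidase Acox3, which rose, and the reductase Decr2, which did not pass. Each runs 5′ to 3′ on its gene's strand, and capitals mark GGGCGG or CCAAT on either strand.
Eci2, chr13:34994145-34994394, - strand: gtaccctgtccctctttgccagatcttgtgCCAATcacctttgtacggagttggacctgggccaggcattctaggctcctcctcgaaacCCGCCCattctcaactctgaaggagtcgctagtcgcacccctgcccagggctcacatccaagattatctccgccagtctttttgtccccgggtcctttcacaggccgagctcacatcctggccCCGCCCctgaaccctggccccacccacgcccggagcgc
Eci1, chr17:24426433-24426682, + strand: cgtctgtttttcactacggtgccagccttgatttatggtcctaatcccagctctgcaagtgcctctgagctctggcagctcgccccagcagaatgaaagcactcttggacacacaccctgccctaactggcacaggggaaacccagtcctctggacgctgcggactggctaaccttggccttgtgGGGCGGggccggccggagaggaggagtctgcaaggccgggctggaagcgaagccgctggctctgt
Acox3, chr5:35582784-35583033, + strand: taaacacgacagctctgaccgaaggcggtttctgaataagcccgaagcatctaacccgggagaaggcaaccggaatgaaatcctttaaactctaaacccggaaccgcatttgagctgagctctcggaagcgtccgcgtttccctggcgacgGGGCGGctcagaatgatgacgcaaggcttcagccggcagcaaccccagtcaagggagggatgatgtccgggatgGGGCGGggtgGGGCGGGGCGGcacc
Decr2, chr17:26090165-26090414, - strand: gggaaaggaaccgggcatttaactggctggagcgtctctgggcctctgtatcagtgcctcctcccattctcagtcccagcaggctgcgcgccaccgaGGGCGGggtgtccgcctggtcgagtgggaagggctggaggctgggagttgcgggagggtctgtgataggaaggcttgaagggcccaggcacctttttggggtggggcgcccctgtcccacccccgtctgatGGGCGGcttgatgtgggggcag

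The GC box GGGCGG was found on either strand in all 7 promoters, against 32.7% of the 32851 promoters of the table. Eci2 and Decr2 each held 2 copies, Eci1 held 1 and Acox3 held 4, with the last 2 of Acox3 sharing a base. CCAAT was found for Eci2, Ehhadh, Acaa1a and Acad11 and in 33.8% of all promoters. The start used for Ehhadh matched that of 0 GENCODE transcripts, against 1 (Acaa1a) to 7 (Eci2) for the other genes. None of the 7 held AGGTCA (14% of all promoters), the half-site of nuclear receptors such as the PPARs, so the direct repeat of AGGTCA with 1 base between the copies was not found either (0.0335% of all promoters). TGATGCAA, a motif of the ATF4 type, was not found in the 7 and was present in 0.791% of all promoters. GC content of these windows ran from 53.6% in Acaa1a to 66.0% in Decr2, against a median of 52.4%. These counts describe the letters of 250 bases upstream of 1 start per gene. The direct repeat is too rare among all promoters for its absence from 7 to be informative, and binding of any factor was not tested.

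The isomerases ECI1 and ECI2 move a double bond into the position that the spiral can use. ECI1 works in the mitochondrial matrix, and ECI2 is found in peroxisomes and mitochondria. Eci2 was measured at 78.2, 100, 91.0, 94.4 and 80.8 CPM in TfamAKO 1 to 5 and at 30.3, 36.6, 38.3, 32.8 and 33.5 CPM in WT 1 to 5. The lowest TfamAKO library was above the highest WT library by more than the whole WT range. This was the largest change of the 9, a log2 fold change of 1.37 ± 0.09 or 2.59-fold (edgeR adjusted p = 7.03e-07), higher than that of 96.6% of all genes tested. Its tandem relative Eci3 was at 0 to 0.382 CPM in TfamAKO and 0 to 0.572 CPM in WT, so few counts were assigned to that copy. Exons of Eci2 share 189 bases with the antisense gene Gm16984 in GENCODE M21. Eci1 was measured at 19.4, 20.2, 19.2, 22.1 and 17.3 CPM in TfamAKO 1 to 5 and at 14.3, 17.5, 19.1, 19.1 and 14.8 CPM in WT 1 to 5. TfamAKO 5 lay inside the WT range and the other TfamAKO libraries just above it. The log2 fold change of Eci1, 0.21 ± 0.11, did not pass (edgeR adjusted p = 0.135).

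DECR1 in mitochondria and DECR2 in peroxisomes reduce the conjugated double bonds that arise from polyunsaturated chains. Decr1 was measured at 30.2, 41.2, 38.2, 40.2 and 32.5 CPM in TfamAKO 1 to 5 and at 11.6, 15.3, 19.8, 17.7 and 15.4 CPM in WT 1 to 5. The genotypes did not overlap, and WT 1 and TfamAKO 1 were the lowest of their groups. Decr1 rose by a log2 fold change of 1.19 ± 0.14 or 2.28-fold (edgeR adjusted p = 5.55e-05). The peroxisomal reductase Decr2 was measured at 30.0, 24.4, 25.9, 22.2 and 24 CPM in TfamAKO 1 to 5 and at 28.4, 23.4, 29.7, 26.5 and 29.1 CPM in WT 1 to 5. Here the highest library of all was TfamAKO 1 and the lowest was TfamAKO 4. The log2 fold change of Decr2 was -0.12 ± 0.09 and did not pass (edgeR adjusted p = 0.348).

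The pairs were set against each other as ratios within a library, which a scaling by 1 factor per library cannot move. The log2 ratio of Eci2 to Eci1 counts was 2.17 ± 0.12 in TfamAKO and 1.02 ± 0.15 in WT (SD, n = 5 each), a difference of 1.15 with no overlap (two-sided exact permutation test, p = 0.00794, adjusted p = 0.0159 over 4 ratios, of which 3 are reported here). The log2 ratio of Decr1 to Decr2 was 0.52 ± 0.33 in TfamAKO and -0.80 ± 0.31 in WT, a difference of 1.32 (exact permutation p = 0.00794, adjusted p = 0.0159). With 5 libraries against 5, the test cannot go below 0.00794. These ratios are of counts, not corrected for length, and only their difference between genotypes is read. In the authors' normalized values, which carry gene-wise factors, the differences were 0.94 and 1.29 (exact permutation adjusted p = 0.0159 each). Among the reductases the mitochondrial form rose and the peroxisomal form did not pass. Among the isomerases the mitochondrial form did not pass and Eci2 rose.

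**Figure D2:**
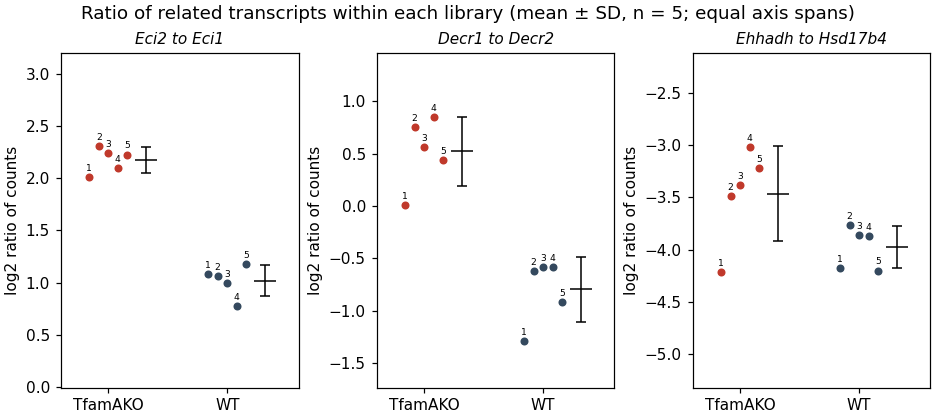
Log2 ratio of counts of related genes within each library, TfamAKO left of WT, with mean ± SD over 5 mice and the same axis span of log2 units in every panel. The groups are apart for Eci2 to Eci1 and Decr1 to Decr2 and overlap for Ehhadh to Hsd17b4.

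Of the 4 genes of the peroxisomal spiral itself, Acox3, Ehhadh and Hsd17b4 rose and Acaa1a did not pass. ACOX3 oxidises branched-chain acyl-CoAs in rodents. Acox3 was measured at 37.4, 38.9, 37.9, 37.8 and 47.1 CPM in TfamAKO 1 to 5 and at 27.8, 29.4, 31.3, 31.9 and 32.9 CPM in WT 1 to 5. TfamAKO 5 stood above the other TfamAKO libraries, which lay close together above the WT range. Acox3 rose by a log2 fold change of 0.38 ± 0.08 or 1.30-fold (edgeR adjusted p = 0.00337). Its exons share 700 bases with the antisense gene 4931431C16Rik in GENCODE M21.

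EHHADH, the L-bifunctional enzyme, handles dicarboxylic and other chains, and HSD17B4, the D-bifunctional enzyme, is the main one for very long and branched chains. Ehhadh, with 49 to 276 counts per library, was measured at 3.79, 6.73, 7.44, 9.71 and 7.05 CPM in TfamAKO 1 to 5 and at 3.01, 4.66, 4.26, 4.41 and 3.19 CPM in WT 1 to 5. TfamAKO 1 lay inside the WT range, and the other 4 TfamAKO libraries lay above it and spread widely. Ehhadh rose by a log2 fold change of 0.83 ± 0.23 or 1.78-fold (edgeR adjusted p = 0.0130). Its coefficient of variation was 30.4% in TfamAKO and 19.3% in WT, the highest of the 9 in each genotype. It did not pass without WT 3, 4 and 5 (log2 fold change 0.87, edgeR adjusted p = 0.119) or without TfamAKO 4 and 5 (0.62, edgeR adjusted p = 0.0768).

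Hsd17b4 was measured at 70.7, 75.7, 78.0, 78.7 and 65.9 CPM in TfamAKO 1 to 5 and at 55.0, 63.4, 62.4, 64.9 and 58.9 CPM in WT 1 to 5. TfamAKO 5 exceeded the highest WT library, WT 4, by about 1 CPM, and the other TfamAKO libraries were further apart from WT. Hsd17b4 rose by a log2 fold change of 0.28 ± 0.07 or 1.21-fold (edgeR adjusted p = 0.00725), and without WT 3, 4 and 5 its 0.34 just missed the threshold. The log2 ratio of Ehhadh to Hsd17b4 was -3.46 ± 0.45 in TfamAKO and -3.97 ± 0.20 in WT, a difference of 0.51 that did not pass (exact permutation p = 0.0635, adjusted p = 0.0847). Without TfamAKO 1 it was 0.70 and passed (exact permutation adjusted p = 0.0212), and without TfamAKO 4 and 5 it was 0.28 (exact permutation adjusted p = 0.286).

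The thiolase ACAA1 ends the peroxisomal spiral. Acaa1a was measured at 74.3, 81.0, 81.6, 86.2 and 84.8 CPM in TfamAKO 1 to 5 and at 80.0, 82.6, 73.0, 72.8 and 69.6 CPM in WT 1 to 5. The groups overlapped, with WT 1 and 2 level with TfamAKO 2 and 3. Its log2 fold change of 0.11 ± 0.06 did not pass (edgeR adjusted p = 0.187), and without WT 3, 4 and 5 it was 0.03. The near-copy Acaa1b was under 1 CPM in every library, at 0.05 to 0.669 CPM in TfamAKO and 0.123 to 0.629 CPM in WT. Exons of Acaa1a share 290 bases with Myd88 on the opposite strand in GENCODE M21. The library kit marks strand, and the sources used here do not say how counting used strand, which holds for each opposite-strand overlap given here.

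ACAD11 is an acyl-CoA dehydrogenase that takes part in the breakdown of hydroxy fatty acids. Acad11 was measured at 34.3, 34.2, 30.6, 32.9 and 29.7 CPM in TfamAKO 1 to 5 and at 20.8, 28.1, 26.6, 26.5 and 25.3 CPM in WT 1 to 5. Every TfamAKO library exceeded every WT library. From the counts, Acad11 rose by a log2 fold change of 0.34 ± 0.09 or 1.27-fold (edgeR adjusted p = 0.00858). In the authors' deposited normalized table, however, its signal was 697, 718, 650.3, 660.3 and 628 in TfamAKO 1 to 5 and 552, 576, 755, 719 and 526 in WT 1 to 5. There WT 3 and 4 stood at or above the highest TfamAKO libraries, and the groups overlapped. On the log2(value + 1) scale the normalized difference was 0.11 and did not pass (limma adjusted p = 0.441).

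The ratio of normalized signal to count, divided by the median ratio of the library, shows where the tables part. For Acad11 this relative factor was 0.898 to 0.951 in the TfamAKO libraries, 0.908 and 0.920 in WT 2 and 5, and 1.20, 1.25 and 1.19 in WT 1, 3 and 4. For Eci2 it was 0.882 to 1.01 in TfamAKO and 1.01 to 1.13 in WT, and the log2 fold change in the normalized table was 1.16 in place of 1.37 (limma adjusted p = 2.16e-06). For Ehhadh it stayed between 0.994 and 1.01 in all libraries. The sources used here do not say how the authors made these gene-wise factors. With them as offsets in edgeR, Acad11 had a log2 fold change of 0.10 (adjusted p = 0.497) and the other 5 genes still passed. Exons of Acad11 also share 163 bases with Gm28305 on the same strand in GENCODE M21, so reads could be assigned to either, and 479 bases with Ackr4 on the opposite strand.

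**Figure D3:**
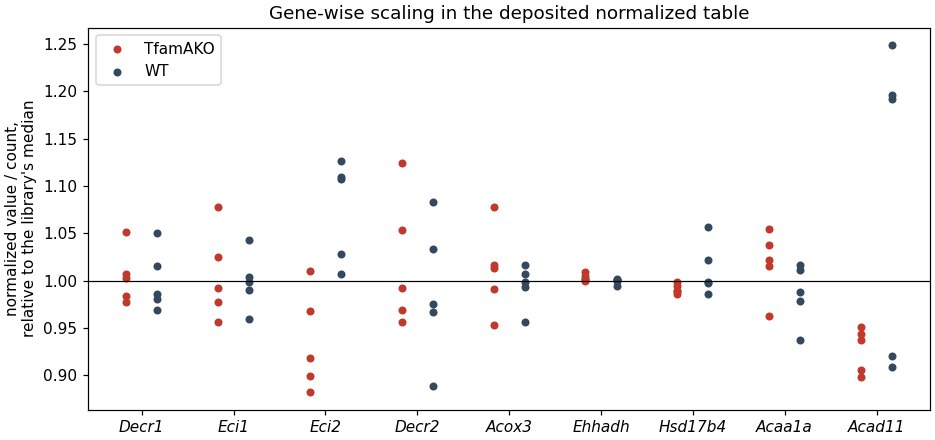
Ratio of deposited normalized value to count for each gene and library, divided by that library's median over all genes, with TfamAKO left of WT. For Acad11, WT 1, 3 and 4 lie between 1.19 and 1.25 and the other 7 libraries between 0.898 and 0.951.

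**Figure D4:**
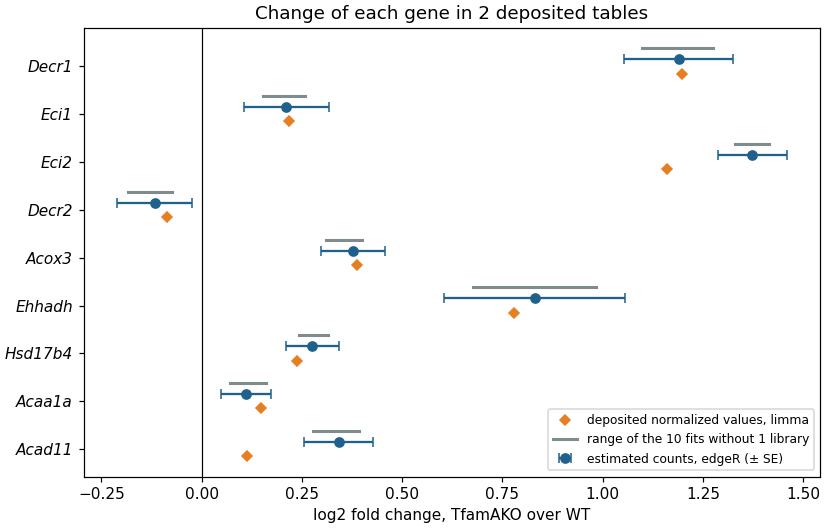
Log2 fold change of TfamAKO over WT from the counts (circles ± SE), from the deposited normalized values with a pseudocount of 1 (diamonds) and the range of the 10 fits without 1 library (grey lines). Acad11 is at 0.34 from the counts and at 0.11 from the normalized values, and Eci2 at 1.37 and 1.16.

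Levels were compared between genes only per length, as CPM per kilobase of the longest protein-coding GENCODE M21 transcript, so they depend on that choice of transcript. In WT the order was Acaa1a (42.9 ± 3.09 CPM per kb), Hsd17b4 (22.7 ± 1.48), Eci2 (19.6 ± 1.82), Eci1 (14.9 ± 2.03), Decr2 (12.3 ± 1.14), Acox3 (7.71 ± 0.518), Acad11 (7.40 ± 0.809), Decr1 (5.39 ± 1.03) and Ehhadh (1.31 ± 0.252). Neighbours whose ranges overlapped were Hsd17b4 and Eci2, Eci1 and Decr2, Acox3 and Acad11, and Acad11 and Decr1. In TfamAKO the level of Eci2 was 50.9 ± 5.27 CPM per kb, with Acaa1a next at 46.3 ± 2.60, and these ranges overlapped. Hsd17b4 (27.5 ± 2.03) and Eci1 (17.3 ± 1.54) followed, each apart from its neighbours. Decr1 (12.3 ± 1.64), Decr2 (11.4 ± 1.31) and Acox3 (10 ± 1.04) overlapped in turn, as did Acox3 and Acad11 (9.39 ± 0.618), and Ehhadh was the lowest at 2.33 ± 0.7096.

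Other genes of the pathway were read from lists chosen with earlier results of these data known. Their counts stand beside the 20.8% of all genes tested that rose and the 16.6% that fell. Of other peroxisomal beta-oxidation enzymes, 5 of 14 tested genes rose and 1 fell, with a median log2 fold change of 0.13. Without TfamAKO 2, 3 or 4 or WT 3, 4 or 5, 1 at a time, and with upper-quartile scaling, 3 rose. Over the 24 alternatives the number that fell was 0 to 2, and it was 0 without TfamAKO 2, 3 or 5 or WT 2. Crot, which makes medium-chain acylcarnitines that leave the peroxisome, was at 80.1 ± 6.07 CPM in TfamAKO and 33.8 ± 5.38 CPM in WT (log2 fold change 1.24 ± 0.10, edgeR adjusted p = 5.5e-06). Ech1, an isomerase of dienoyl-CoAs, rose by 0.82 ± 0.12 on the log2 scale. All 3 tested genes of alpha-oxidation, which trims branched chains before the spiral, rose. They were Phyh (0.61 ± 0.07), Aldh3a2 (0.40 ± 0.06) and Hacl1 (0.68 ± 0.15). Among genes for entry of fatty acids into peroxisomes, 1 of 8 rose and 2 fell, with a median log2 fold change of -0.00. The acyl-CoA synthetase gene Slc27a2 was lower (-0.83 ± 0.12), as was Slc27a4 (-0.39 ± 0.08, lost without WT 3, 4 and 5 at an edgeR adjusted p of 0.136), and the cofactor carrier gene Slc25a17 was higher (0.31 ± 0.07).

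Of 17 peroxisome biogenesis genes, which build the organelle, 3 rose and 2 fell, beside 20.8% and 16.6% of all genes tested, with a median log2 fold change of 0.02, and the count of those that rose ran from 0 to 4 over the 24 alternatives. Among those that rose were Pex11a (0.33 ± 0.10), which takes part in peroxisome division, and Pex2 (0.31 ± 0.09), a subunit of the import machinery. Pex11a lost its call without TfamAKO 3 or WT 5, and Pex2 without TfamAKO 2, TfamAKO 4 or WT 5. In plasmalogen synthesis, which starts in peroxisomes, 0 of 5 rose and 3 fell: Far2 (-0.43 ± 0.14), Gnpat (-0.19 ± 0.07) and Far1 (-0.24 ± 0.09). These lost their calls in 6, 7 and 8 of the 10 fits without 1 library. Of a list of antioxidant and membrane proteins, not all of them confined to peroxisomes, 2 of 7 rose and 1 fell. Catalase, Cat, was at 82.0 ± 7.35 CPM in TfamAKO and 50.3 ± 8.25 CPM in WT (log2 fold change 0.71 ± 0.11, edgeR adjusted p = 0.000407), and Gstk1 rose by 0.49 ± 0.14, a call lost without WT 3, 4 and 5. Prdx5, at -0.15 ± 0.05, lost its call in 7 of the 10 fits without 1 library.

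In the mitochondrial spiral 10 of 16 genes rose and 0 fell, with a median log2 fold change of 0.46, above the 0.34 of the 9 genes by a margin that was not tested. Acadl (1.34 ± 0.14), Hadh (1.06 ± 0.14) and Hadha (0.66 ± 0.10), which encode enzymes of that spiral, had the smallest p. Of known targets of the fatty acid receptor PPARalpha and its relatives, 10 of 13 rose and 1 fell, with a median of 0.87. Angptl4 (2.15 ± 0.18), Plin2 (1.81 ± 0.15) and Acot2 (0.82 ± 0.14) were the examples with the smallest p. Among receptors and coactivators of fatty acid sensing, 2 of 10 rose and 1 fell, beside 20.8% and 16.6% of all genes tested, with a median of 0.01. Ppara was at 3.35 ± 0.462 CPM in TfamAKO and 1.74 ± 0.890 CPM in WT (log2 fold change 0.93 ± 0.33, edgeR adjusted p = 0.0453) and lost its call in 7 of the 10 fits without 1 library. Ppard (0.35 ± 0.10) lost its call only in the fits without WT 3, 4 and 5 or TfamAKO 4 and 5, and Esrra (-0.17 ± 0.06) in 8 of the 10 fits without 1 library.

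**Figure D5:**
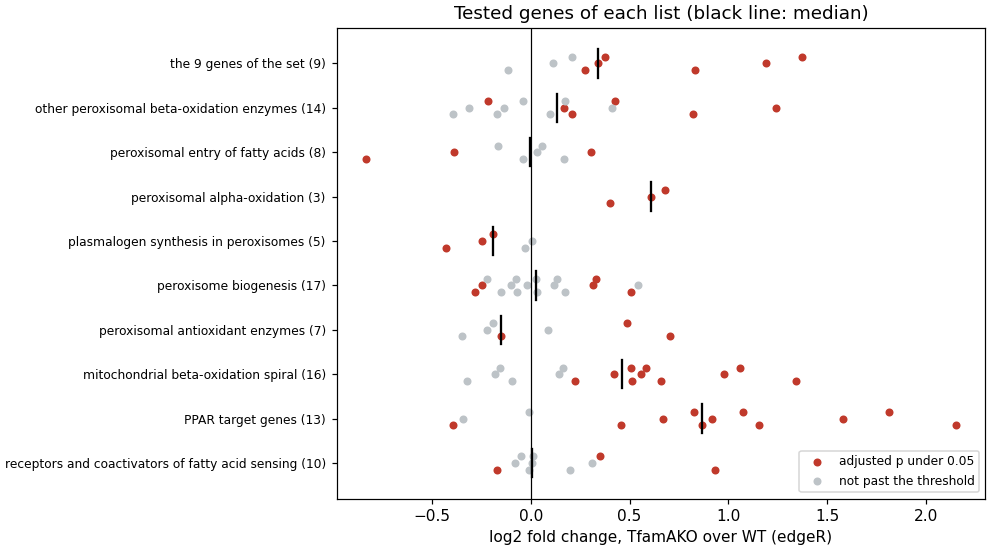
Log2 fold change of TfamAKO over WT for every tested gene of each list, with the number tested in brackets, red where the edgeR adjusted p was under 0.05 and a black line at the median. The medians are 0.34 for the 9 genes, 0.46 for the mitochondrial spiral, 0.87 for PPAR targets and 0.02 for peroxisome biogenesis.

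The genes whose profile over the 10 libraries was closest to the mean profile of the 6 that rose were sought among 14781 others of at least 1 CPM, by the root mean square difference of mean-centred log2 CPM. They were Ak3 (0.0402 log2 units), Nek9 (0.0516), Hsdl2 (0.0645), Hnrnpf (0.0650) and Ctdsp1 (0.0658). The 6 genes themselves lay further from their own mean, at 0.222 for Acad11 to 0.331 for Eci2. This measure keeps the size of the change, so it favours genes with a fold change near that mean. Log2 fold changes ran from 0.65 (Hnrnpf) to 0.81 (Hsdl2) in the closest genes and from 0.28 (Hsd17b4) to 1.37 (Eci2) in the 6. The distances therefore do not show whether the 6 vary together. Ak3 encodes an adenylate kinase of the mitochondrial matrix, and HSDL2 is a dehydrogenase-like protein found in peroxisomes. Where the products of Nek9, Hnrnpf and Ctdsp1 act was not examined, and a location shared by these genes was not tested. None of them, Ak3 and Hsdl2 included, is in the gene lists read above.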

How the data were processed

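Hippocampal RNA of 5 TfamAKO and 5 WT mice was sequenced after library preparation with a stranded mRNA kit (TruSeq), per the labels' protocols. The authors deposited estimated counts, all whole numbers, and a second table of normalized signal values. The submitters' processing notes name Salmon and DESeq2 1.26.0, without their roles, and the sources used here name neither build nor annotation. Counts were tested with edgeR 4.0.16 (R 4.3.3): filterByExpr with a minimum count of 10 (3976 of 20156 rows removed), TMM scaling, a design of genotype alone, the quasi-likelihood F test (two-sided), and Benjamini-Hochberg adjustment over 16180 genes at 0.05. SE is the absolute log2 fold change over the square root of F. Ratios used a pseudocount of 0.5. Alternatives used DESeq2 1.42.0, limma 3.58.1, other scalings and filters, the normalized values, a replicate block and left-out libraries, and, added after the data were seen, the authors' factors as offsets. The steps were tested on simulated data.

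The members and lists were chosen with earlier results of these data known. Named genes are the 9, Tfam, up to 3 genes of each list with the smallest p, and the 5 of closest profile. Some genes and 1 ratio that this rule covers are not reported here. Reads carry no stated molecular identifiers. The design text names separate mice, with no batch or litter. The p-values set the difference between genotypes against the variation among these animals.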

Additional observations from a re-analysis of the deposited data

Results flagged for a closer look

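In TfamAKO 5, Acox3 stood at 47.1 CPM against 37.4 to 38.9 CPM in the other 4 TfamAKO libraries. Its gap to the nearest of them was 0.849 of the group's range, above the critical value of 0.71 for 5 samples (Dixon). In Tfam, TfamAKO 3 (19.6 CPM) lay apart from the other TfamAKO libraries by 0.775 of their range, and WT 3 (20.6 CPM) from the other WT libraries by 0.787. In all, 30 groups of 5 values were examined, and chance flags about 1 in 20.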

How the results depend on the processing

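Of the 6 genes that rose, Eci2, Decr1 and Acox3 passed in all 24 alternatives, with log2 fold changes of 1.16 to 1.43, 1.10 to 1.46 and 0.31 to 0.51. No direction of the 6 reversed in any of the 24. Acad11 lost its call in 5, Ehhadh in 2 and Hsd17b4 in 1. Eci1, Decr2 and Acaa1a passed in none of the 24. Without WT 3, 4 and 5, only WT 1 and 2 remained, so that fit had less power than the full one. The log2 fold change of each of the 6 was larger there, as for Acox3 (0.51 in place of 0.38) and Acad11 (0.42 in place of 0.34). In that fit 3 of the 9 genes passed, and over all genes 2752 differed, 2002 higher and 750 lower, in place of 6048, 3369 and 2679. In the 10 fits without 1 library these counts ran from 4828 to 7094, 2839 to 3800 and 1989 to 3294, with 6 of the 9 genes higher and 0 lower each time. The ratio differences then ran from 1.09 to 1.20 (Eci2 to Eci1), 1.20 to 1.45 (Decr1 to Decr2) and 0.40 to 0.70 (Ehhadh to Hsd17b4). From the authors' normalized values of all 10 libraries they were 0.94, 1.29 and 0.55. Without TfamAKO 4 and 5, the first 2 ratio differences were 1.16 and 1.24 (exact permutation adjusted p = 0.0714 each) and the third was 0.28 (adjusted p = 0.286); 3 against 5 libraries allow no unadjusted p under 0.0357. Same-numbered mice of the genotypes did not deviate together (correlations of -0.142 to 0.069 across genes), so the numbers were not taken as pairs. With the replicate block 5679 genes and 6 of the 9 passed, and the paired ratio differences were 1.15, 1.32 and 0.51, where a sign-flip exact test of 5 pairs allows no p under 0.0625. No alternative moved the median log2 fold change of all genes by over 0.1. Of the 432 list counts under alternatives, 103 differed from the main count by over 1.5 times. Ehhadh, with 49 to 276 counts per library, has the least depth.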
